A study of Mus musculus with 24 samples.

Results

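The genes described here encode 10 heat shock proteins and chaperones, Hspa1a, Hspa1b, Hspa8, Hsp90aa1, Hsp90ab1, Hspb1, Dnajb1, Hsph1, Hspa5 and Hspd1. They were chosen by symbol, 10 of the 48321 gene symbols in the deposited count tables, and all 10 passed the filter on low counts, which kept 21477 genes. The adult hippocampus of C57BL/6 mice was the source, and RNA was read in sorted cells carrying GFP, from 3 pools of wild-type (WT) and 3 pools of Notch2 conditional knockout (CKO) animals. All animals of both genotypes carried Hes5::CreERT2, a tamoxifen-inducible Cre driven by the Notch target gene Hes5, and the Rosa26R-CAG::GFP reporter. WT animals were Notch2 wt/wt and CKO animals Notch2 flox/flox. All received tamoxifen for 5 days, with cells taken after 1 day of chase, so recombination and the GFP label are limited to cells in which Hes5 was active and to their early progeny. The comparison asks how the RNA of these cells differs when Notch2, a Notch receptor, is deleted in adult neural stem cells.

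Chaperones bind proteins that are not yet folded or have lost their fold. The HSP70 and HSP90 families use ATP to hold and release client proteins in the cytosol, with J-domain proteins and exchange factors that drive the cycle, while related chaperones serve the endoplasmic reticulum and the mitochondrial matrix. In stressed cells the transcription factor HSF1 binds heat shock elements and raises the inducible members, and the unfolded protein response raises those of the endoplasmic reticulum. The inducible HSP70 genes are also known to respond in brain cells while tissue is dissociated and sorted.

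Several of these promoters hold the motifs of those factors, and the stretches that carry them are shown because the levels described below are those of genes that share them. Sequences are from RefSeq promoters on GRCm38.p6, which cover 250 bases before to 50 bases after each start site and were found for 7 of the 10 genes. Hspa1a (chr17:34972157-34972406, minus strand) and Hspa1b (chr17:34959239-34959488, minus strand) are neighbouring copies, and 247 of the 250 bases before their start sites are identical (98.8%). Capitals mark a 2-unit heat shock element, which begins 104 bases before the start site in both.
Hspa1a: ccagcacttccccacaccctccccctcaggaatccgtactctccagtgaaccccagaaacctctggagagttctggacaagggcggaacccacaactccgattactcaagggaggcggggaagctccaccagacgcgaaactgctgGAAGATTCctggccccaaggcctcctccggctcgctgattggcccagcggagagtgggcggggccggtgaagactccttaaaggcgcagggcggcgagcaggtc
Hspa1b: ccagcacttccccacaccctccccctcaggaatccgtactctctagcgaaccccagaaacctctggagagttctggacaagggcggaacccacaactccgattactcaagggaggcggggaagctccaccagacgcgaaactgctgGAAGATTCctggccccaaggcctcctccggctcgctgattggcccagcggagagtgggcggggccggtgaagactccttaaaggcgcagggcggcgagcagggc
Hspd1, the mitochondrial HSP60, and Hspe1, its HSP10 partner, lie head to head and share 1 short region (chr1:55088053-55088082), in which capitals mark overlapping 3-unit heat shock elements. The runs below are the same bases read on the minus strand for Hspd1 and on the plus strand for Hspe1.
Hspd1: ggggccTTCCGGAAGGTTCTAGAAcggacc
Hspe1: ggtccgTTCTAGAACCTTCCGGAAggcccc
Hsph1 (chr5:149636282-149636306, minus strand) has a 3-unit element just downstream of its start sites, in capitals.
Hsph1: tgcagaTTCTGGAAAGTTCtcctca
In Hspa5 (chr2:34772020-34772048, plus strand) and in its partner Hsp90b1 (chr10:86705633-86705661, minus strand), capitals mark an endoplasmic reticulum stress response element. The Hsp90b1 promoter also held 1 in the opposite orientation, 107 bases before its start site, which is not shown.
Hspa5: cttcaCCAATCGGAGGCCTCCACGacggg
Hsp90b1: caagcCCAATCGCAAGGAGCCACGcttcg
The letters searched were GAANNTTC for the 2-unit element, which reads the same on both strands, GAANNTTCNNGAA or TTCNNGAANNTTC for the 3-unit element, which contains the first, and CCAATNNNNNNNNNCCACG on either strand. They were present in 7.86%, 0.603% and 0.119% of 32851 promoters of the same length. Hspb1 also held the 2-unit element, at 117 and 97 bases before its start site, and the promoters of Dnajb1 held none of these letters in this window. A match is a description of the sequence and not a measured binding site.

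Pools had between 40366579 and 53984963 reads on genes, so that 1 read is worth 0.0175 to 0.0265 CPM, read counts scaled to a common library size and the unit of all levels below. Notch2 itself (chromosome 3, 98013527 to 98150361) had 99.3, 146 and 303 CPM in WT pools 1, 2 and 3 and 65.3, 116 and 121 CPM in CKO pools 1, 2 and 3. The genotypes overlapped, the log2 fold change of CKO over WT was -0.86 (standard error, SE, 0.45, n = 3 pools per genotype, edgeR adjusted p = 0.790), and it was -0.29 without WT pool 3. A gene-level count includes exons that remain after recombination, so it checks the deletion only in part. Of the stem cell and radial glia markers, Hes5 stood at 234 to 495 CPM and Slc1a3 at 3838 to 10122 CPM, while Nes stood at only 0.185 to 6.37 CPM. Astrocyte markers summed to 14092 to 18770 CPM over the WT pools and to 12105 to 19275 CPM over the CKO pools, oligodendrocyte markers at 2381 to 6401 and 3194 to 5560 CPM, and oligodendrocyte precursor markers at 1560 to 2683 and 1028 to 3059 CPM, so the levels describe all sorted cells. Summed neuronal markers stood at 856 CPM in WT pool 1 and at 308 to 403 CPM in the other pools. WT pool 1 was also highest in summed markers of neuroblasts (597 CPM beside 223 to 485) and of endothelial and mural cells (149 CPM beside 53.3 to 115). Each of these sums rested on part of its list. Of the neuronal markers Slc17a7, Gad1 and Gad2 were higher in another pool. The same held for Neurod1, Neurog2, Dcx and Prox1 of the neuroblast markers. It also held for Flt1, Kdr, Pdgfrb and Rgs5 of the endothelial and mural markers. In such bulk samples fewer cells of a type and less RNA per cell cannot be told apart. The labels do not say that pools shared no animals, and p-values here measure only how these pools vary.

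None of the 10 genes differed between genotypes beyond the spread of the pools. By edgeR's quasi-likelihood test 0 of 10 passed an adjusted p under 0.05, where 0 of 21477 genes passed (0%), and 0 of 10 had an unadjusted p under 0.05, where 5.91% of all genes did. For all 10 the pools of the genotypes overlapped, while they were apart for 15.8% of all genes. The median log2 fold change of the 10 genes was 0.07, with 7 above 0, and that of all genes was -0.06, with 10140 of 21477 above 0. The count above 0 was 4 when WT pool 1 was left out.

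**Figure D1:**
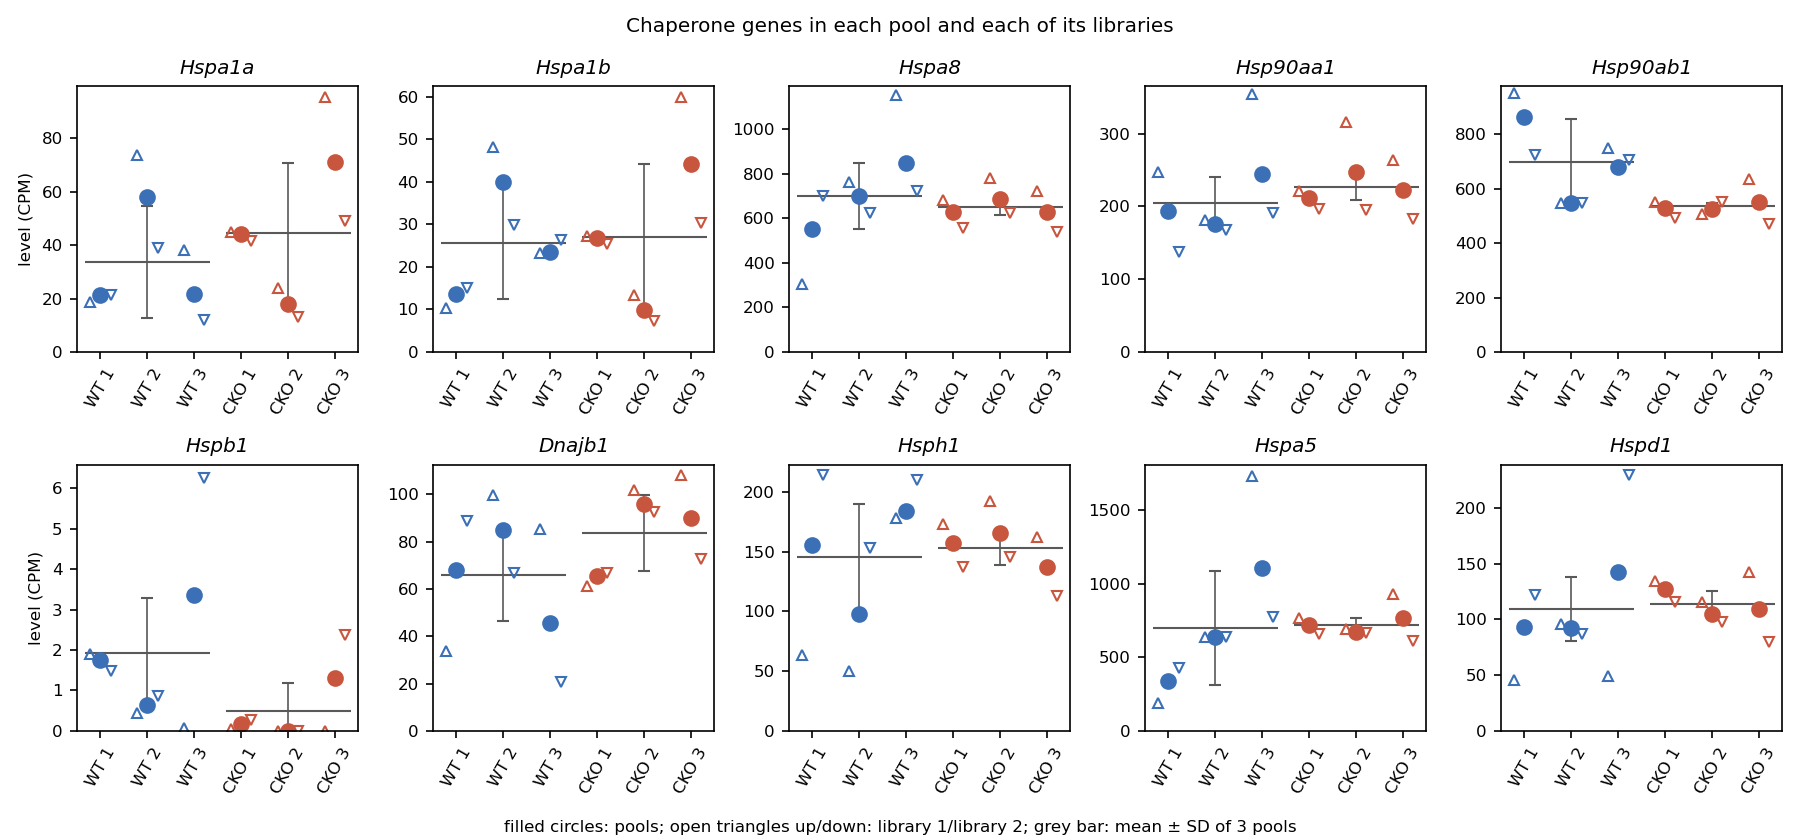
Level in CPM of the 10 chaperone genes, 1 panel per gene with its own scale. Filled circles are the pools (blue WT, red CKO), upward triangles library 1 and downward triangles library 2 of each pool, and the grey line and bar are the mean and SD of 3 pools. In every panel the circles of the genotypes overlap in height, and for Hsph1, Hspd1 and Dnajb1 the libraries of 1 pool can lie as far apart as different pools.

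The inducible HSP70 genes varied most between pools among the genes above 10 CPM. Hspa1a (chromosome 17, 34969190 to 34972156, minus strand, GRCm38) had 21.2, 57.9 and 21.8 CPM in WT pools 1, 2 and 3. In the CKO pools it had 44.1, 17.9 and 71.1 CPM. Both the lowest pool, CKO pool 2, and the highest, CKO pool 3, were of the same genotype, and they were 3.96-fold apart. The WT mean was 33.7 ± 21.03 CPM and the CKO mean 44.4 ± 26.6 CPM (SD, n = 3), a log2 fold change of 0.40 (SE 0.61, 95% interval -1.03 to 1.83, edgeR adjusted p = 0.882). An exact permutation test gave p = 0.7, and 3 against 3 pools cannot give less than 0.1. Leaving out CKO pool 3 turned it to -0.08. That pool also had the highest sum of microglial markers, 571 CPM beside 195 to 310 CPM in the others. It was also highest in summed stem cell and radial glia markers (13302 CPM) and astrocyte markers (19275 CPM). Summed oligodendrocyte precursor markers were lowest in it (1028 CPM). Tmem119, S100b, Slc6a11 and Aldoc were higher in another pool, as were all stem cell and radial glia markers but Sox9, Gfap and Slc1a3. Olig2 was lower in another pool. The part of these sums in the result was not tested.

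Hspa1b (34956436 to 34959238), whose transcript is 99.2% identical to that of Hspa1a over 2201 bases, had 13.6, 39.9 and 23.4 CPM in WT and 26.8, 9.96 and 44.3 CPM in CKO pools. CKO pool 2 was again the lowest and CKO pool 3 the highest, 4.44-fold apart. Its log2 fold change was 0.08 (SE 0.62, 95% interval -1.39 to 1.55, edgeR adjusted p = 0.980). It was -0.44 without CKO pool 3 and -0.21 without WT pool 1. These intervals include 2-fold differences in either direction, so that differences of that size were not detectable for either gene.

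The levels of the pair rose and fell together across pools. Pearson's r of log2 CPM was 0.920 over 6 pools (exact permutation p = 0.00278, the smallest possible, adjusted p = 0.0194 over 7 pairs compared), and Spearman's rho was 1.00 (exact permutation p = 0.00278, adjusted p = 0.0194). Without CKO pool 3 and WT pool 2, the pools farthest from the median, r was 0.772, and with 4 pools the exact p cannot go below 0.0833. Within library 1 of each pool r was 0.999 and within library 2 it was 0.618. The ratio of Hspa1a to Hspa1b reads ranged from 0.930 in WT pool 3 to 1.80. Reads of such near-identical genes can be placed on either copy, and the share placed wrongly was not tested. Hspa1a also shares 564 of its 2967 exon bases with Gm20481 on the opposite strand, and these are all the exon bases of Gm20481. Reads there cannot be assigned without strand, so the 0 reads of Gm20481 in all pools do not show that the overlap was without effect. Reads left out for this reason would lower the level of Hspa1a and its ratio to Hspa1b, and their number was not tested.

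Dnajb1 and Hsph1 encode partners of HSP70, and both are textbook targets of HSF1. Dnajb1 (chromosome 8, 83608193 to 83612653), a J-domain protein that stimulates the HSP70 ATPase, had 67.8, 84.7 and 45.4 CPM in WT and 65.4, 95.7 and 89.8 CPM in CKO pools. The 2 highest values were CKO pools 2 and 3, and CKO pool 1 lay below 2 of the WT pools. The log2 fold change was 0.34 (SE 0.31, 95% interval -0.38 to 1.07, edgeR adjusted p = 0.824, exact permutation p = 0.3). It was 0.13 without WT pool 3 and 0.62 without WT pool 2.

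Hsph1 (chromosome 5, 149614287 to 149636376), the large HSP110 that exchanges nucleotide on HSP70, had 156, 97.5 and 184 CPM in WT and 157, 165 and 137 CPM in CKO pools. The CKO pools lay between WT pool 2, the lowest, and WT pool 3, the highest. The log2 fold change was 0.07 (SE 0.27, 95% interval -0.57 to 0.72, edgeR adjusted p = 0.953). The libraries gave opposite signs, 0.88 in library 1 and -0.57 in library 2.

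No correlation of either gene with Hspa1a passed. The correlation of Hspa1a with Dnajb1 was r = 0.340 (rho = -0.0286, exact permutation p = 0.564, adjusted p = 0.564), and that with Hsph1 was r = -0.699 (rho = -0.657, exact permutation p = 0.114, adjusted p = 0.199). Without CKO pool 3 and WT pool 2 these were -0.224 and -0.362. CKO pool 2, lowest in both inducible HSP70 genes, was the highest pool of Dnajb1.

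Hspa8 (chromosome 9, 40800984 to 40810087) encodes the constitutive cytosolic HSC70, which folds new proteins and uncoats clathrin vesicles. It had 552, 701 and 850 CPM in WT and 629, 687 and 631 CPM in CKO pools. All 3 CKO pools lay within the WT range. The means were 701 ± 149 and 649 ± 33.1 CPM (SD, n = 3), a log2 fold change of -0.11 (SE 0.21, 95% interval -0.61 to 0.39, edgeR adjusted p = 0.909). Without WT pool 3, the highest, it was 0.05.

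The cytosolic HSP90 genes stood on opposite sides of 0. Hsp90aa1 (chromosome 12, 110690605 to 110702728), the stress-responsive isoform, had 194, 176 and 245 CPM in WT and 212, 247 and 222 CPM in CKO pools. Its log2 fold change was 0.15 (SE 0.21, 95% interval -0.34 to 0.64, edgeR adjusted p = 0.876). Only WT pools 1 and 2 lay below the CKO range.

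Hsp90ab1 (chromosome 17, 45567775 to 45573271), the constitutive isoform, had 865, 548 and 679 CPM in WT and 530, 526 and 550 CPM in CKO pools. WT pools 1 and 3 lay above all CKO pools, and WT pool 2 fell just under CKO pool 3. The means were 697 ± 159 and 535 ± 13.1 CPM (SD, n = 3), a log2 fold change of -0.38 (SE 0.22, 95% interval -0.89 to 0.13, edgeR adjusted p = 0.794). Its unadjusted edgeR p of 0.120 was the smallest of the 10 genes, and the exact permutation p was 0.2. Library 1 gave -0.39 and library 2 gave -0.41, while all libraries but those of WT pool 1 gave -0.18. That pool also had the highest sums of neuronal, neuroblast and endothelial markers, and their part in this result, and in the values of Hspe1, Stub1, Hsbp1, Cryab, Clpp, Grpel1, Pfdn2 and Pfdn4 below, was not tested.

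The correlation of Hspa8 with Hsp90ab1 across pools was r = -0.249 (rho = -0.143, exact permutation p = 0.544, adjusted p = 0.564), with -0.550 in library 1 and 0.976 in library 2. That of Hsp90aa1 with Hsph1 was 0.809 (rho = 0.771, exact permutation p = 0.0722, adjusted p = 0.199), with 0.707 in library 1 and -0.512 in library 2. Neither held across libraries. Without the pools farthest from the median they were -0.0328 and 0.478.

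Hspa5 (chromosome 2, 34771970 to 34777547) encodes BiP, the HSP70 of the endoplasmic reticulum and the sensor that holds the unfolded protein response in check. It had 342, 639 and 1111 CPM in WT pools, a 3.25-fold range, and 723, 670 and 767 CPM in CKO pools. The CKO pools clustered between WT pools 2 and 3. The means were 697 ± 388 and 720 ± 48.7 CPM (SD, n = 3), a log2 fold change of 0.05 (SE 0.40, 95% interval -0.89 to 0.98, edgeR adjusted p = 0.981). It was -0.27 without WT pool 1 and 0.55 without WT pool 3.

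Hsp90b1, the HSP90 of the same compartment, had 213, 318 and 396 CPM in WT and 343, 448 and 383 CPM in CKO pools. WT pool 1 was the lowest pool of both genes. Across pools they had r = 0.829 (rho = 0.657, exact permutation p = 0.108, adjusted p = 0.199), with 0.846 in library 1 and 0.856 in library 2. Without WT pools 1 and 3 r was 0.174, so the relation rests on those pools.

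Hspd1 (chromosome 1, 55077835 to 55088243), which forms the folding chamber of the mitochondrial matrix, had 93.0, 92.1 and 142 CPM in WT and 127, 105 and 109 CPM in CKO pools. All CKO pools lay within the WT range. The log2 fold change was 0.06 (SE 0.25, 95% interval -0.54 to 0.65, edgeR adjusted p = 0.961), with opposite signs in library 1 (1.05) and library 2 (-0.59).

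Hspe1, the lid of that chamber, shares with Hspd1 the heat shock elements shown above and 112 exon bases, where reads cannot be assigned without strand. It had 98.4, 62.4 and 61.6 CPM in WT and 56.2, 57.4 and 51.6 CPM in CKO pools. Each CKO pool was below every WT pool, but the log2 fold change of -0.43 (SE 0.27) did not pass (edgeR adjusted p = 0.798), and it was -0.16 without WT pool 1. Despite their shared promoter region, the correlation of Hspd1 with Hspe1 over pools was r = -0.453 (rho = -0.543, exact permutation p = 0.342, adjusted p = 0.478). Its sign depended on the library, with -0.882 in library 1 (exact permutation p adjusted over 7 pairs 0.00972) and 0.644 in library 2. Without WT pool 3 and CKO pool 1 it was -0.726.

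**Figure D2:**
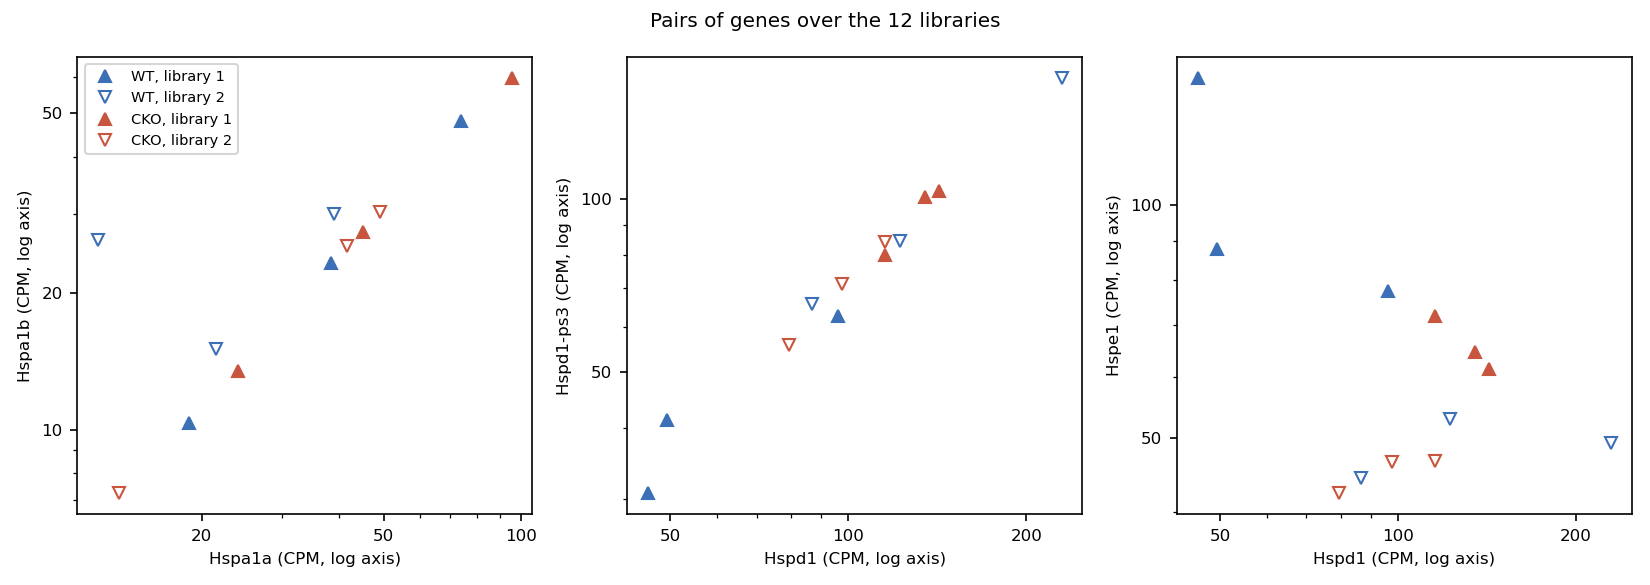
Levels in CPM on log axes over the 12 libraries, 1 point per library (blue WT, red CKO, filled library 1, open library 2), for Hspa1a with Hspa1b, Hspd1 with its pseudogene Hspd1-ps3, and Hspd1 with Hspe1. The first and second panels run along the diagonal, apart from library 2 of WT pool 3 in the first, while in the third the filled points fall as Hspd1 rises and the open points lie lower.

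Hspb1 (chromosome 5, 135887919 to 135889563), a small heat shock protein that holds unfolded proteins without ATP, was close to the limit of detection. It had 88, 27 and 127 reads in WT and 9, 0 and 66 reads in CKO pools, or 1.74, 0.637 and 3.36 CPM and 0.158, 0 and 1.30 CPM. The 0 reads of CKO pool 2 allow up to 0.0673 CPM (3 reads, for counting error only). In WT pool 3 the reads came from library 2, which held 126 where library 1 held 1, and in CKO pool 3 they were 66 and 0. The log2 fold change was -1.97 (SE 1.61, 95% interval -5.78 to 1.83, edgeR adjusted p = 0.815). With 1 pool left out it ranged from -4.48 without CKO pool 3 to -1.29 without WT pool 3. Differences within this interval were not detectable.

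**Figure D3:**
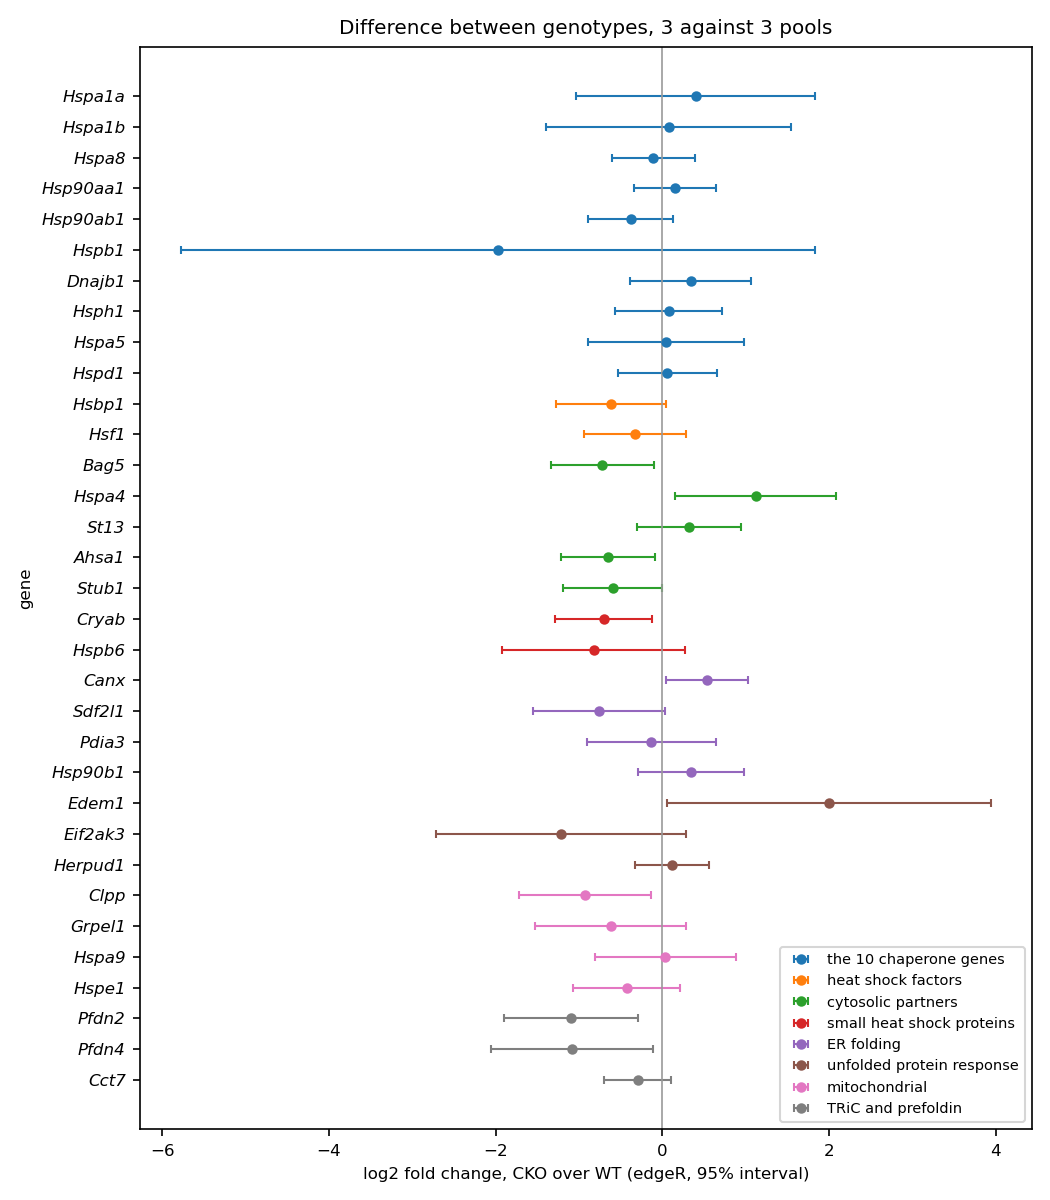
Log2 fold change of CKO over WT with its 95% interval from edgeR (3 against 3 pools), for the 10 chaperone genes at the top and for named genes of 7 further chaperone lists by colour. Intervals of all 10 genes include 0, that of Hspb1 is the widest, and those of Pfdn2, Pfdn4, Clpp, Cryab, Bag5, Ahsa1 and Stub1 lie below 0 and those of Hspa4, Canx and Edem1 above 0, before adjustment over all genes.

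The 10 genes were ordered by level per kilobase of exon, averaged over the 6 pools. The length used was that of all annotated exons of a gene together. For Hspa8 this was 4301 bases, beside 2394 in its longest protein-coding transcript, and for Hsph1 it was 7266 beside 3802. The levels of such genes per kilobase may be too low, and the order of neighbouring genes depends on the length used. Hsp90ab1 was first at 205.5 CPM per kilobase, followed by Hspa5 at 168 and Hspa8 at 157. The pool ranges of these 3 overlapped, and Hspa5 was above Hspa8 in only 3 of 6 pools. Hsp90aa1 followed at 54.9 CPM per kilobase, apart from Hspa8 in pool ranges, and Hspd1 at 42.2, which overlapped it. Dnajb1 at 23.4, Hsph1 at 20.6, Hspa1a at 13.1 and Hspa1b at 9.39 CPM per kilobase each overlapped the next. Hspb1 was last at 1.16 CPM per kilobase, below all others in every pool. The constitutive cytosolic HSP70 thus stood above both inducible genes in level per kilobase.

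For most of these genes the pools spread less than is typical of the table. Over the 6 pools the median SD of log2 CPM was 0.359 for the 10 genes and 0.715 for all tested genes. For 3997 genes at 50 CPM or more it was 0.421, beside 0.320 for the 9 members at 10 CPM or more, which is a different level limit. Among the members at 50 CPM or more, Hspa5 had 0.553 and the others 0.192 (Hsp90aa1) to 0.398 (Dnajb1). Hspa1a and Hspa1b, with means under 50 CPM, had 0.847 and 0.848. The CKO pools were closer together than the WT pools for 7 of the 10 genes, the exceptions being Hspa1a, Hspa1b and Hspb1. For Hspa5 the SD of log2 CPM was 0.851 in WT and 0.0980 in CKO, and for Hsp90ab1 it was 0.329 and 0.0352. The same direction held for 74.1% of all tested genes and 76.3% of those at 50 CPM or more, so 70% of the 10 genes is close to the background.

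The libraries of a pool differed for several genes as much as the pools did. Such differences were usual in the table. The median absolute log2 ratio between libraries was 0.544 for the 9 members at 10 CPM or more. It was 0.553 for the 3997 genes at 50 CPM or more and 0.910 for all tested genes. Single members at 50 CPM or more had between 0.147 (Hsp90ab1) and 0.611 (Hsp90aa1). Hspd1 had 49.4 and 229 CPM in libraries 1 and 2 of WT pool 3, a 4.64-fold difference. Dnajb1 went the other way in the same pool, with 85.5 and 20.6 CPM. Hsph1 had 64.0 and 215 CPM in WT pool 1 and 49.8 and 153 CPM in WT pool 2, where library 2 was higher in both. In the CKO pools library 1 was the higher of the pair for Hsph1 and Hspd1 in all 3. Hsp90aa1 was higher in library 1 in all 6 pools, by 1.86-fold in WT pool 3. By contrast, the libraries of a pool differed by at most 1.36-fold for Hsp90ab1.

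Library 1 of WT pool 1 stood apart for several genes. It was the lowest of 12 libraries for Hspa8 (307 CPM), Hspa5 (192 CPM), Hspd1 (45.8 CPM) and Hsp90b1 (167 CPM), and the highest for Hsp90ab1 (953 CPM), Hspe1 (146 CPM) and Cryab (962 CPM). With WT pool 1 represented by its library 2 alone, 4 of the 10 genes were above 0 and their median log2 fold change was -0.05. No gene passed the adjusted threshold in that fit.

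**Figure D4:**
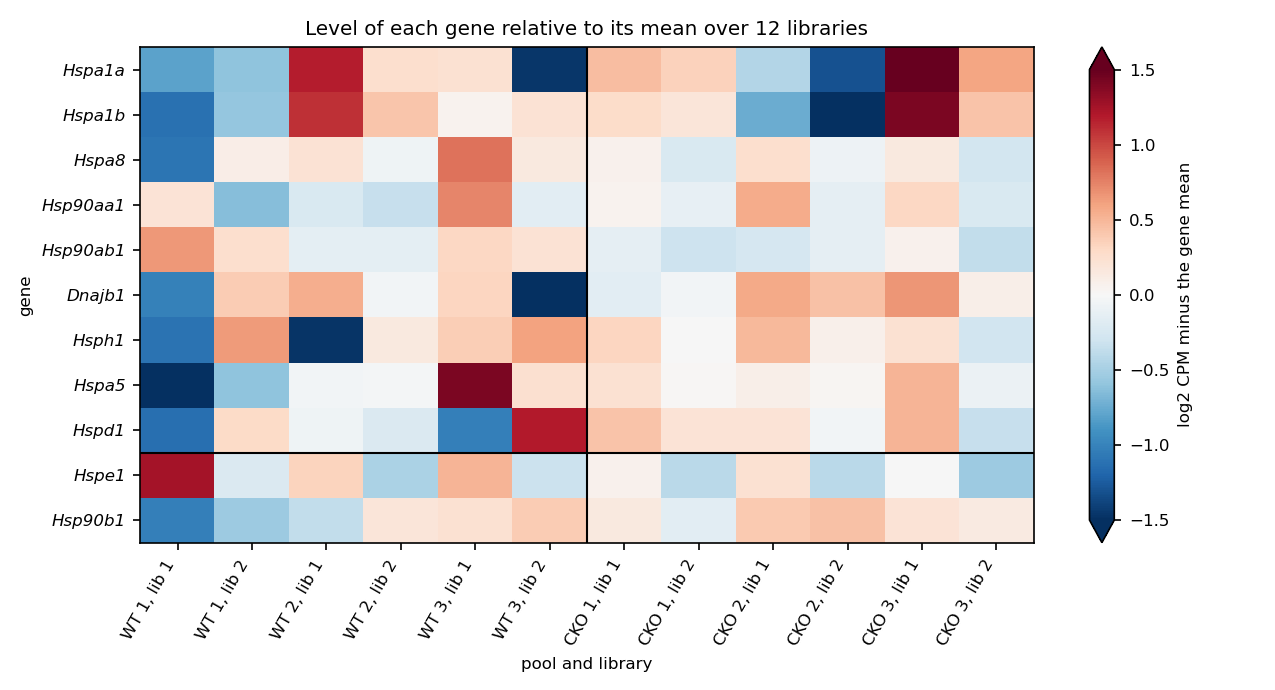
Log2 CPM minus the mean over the 12 libraries for 9 of the 10 genes and the partners Hspe1 and Hsp90b1, with 1 column per library. The colour scale ends at 1.5 in either direction (red above, blue below the mean), and Hspb1 is left out because it held 0 reads in several libraries. Library 1 of WT pool 1 is blue for Hspa8, Hspa5 and Hspd1 and red for Hsp90ab1 and Hspe1, and rows of Hspa1a and Hspa1b share their pattern apart from library 2 of WT pool 3.

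Pseudogene copies held many reads beside 3 of the abundant genes. The copies were transcripts of at least 95% identity over at least 200 bases. Hsp90aa1 had 60891 reads in all pools, and its 3 pseudogene copies had 76673, or 126% of that number. Gm12346, which is 99.5% identical over 2255 bases, held 44710 of them and Gm5844 held 30509. Hspa8 had 188288 reads and its copies 149068 (79.2%), with 68165 on Gm6210 and 55615 on Gm8355. Gm26825, a noncoding gene that is 99.6% identical, held 7501 more. Hspd1 had 31435 reads and Hspd1-ps3 22500 (71.6%).

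For Hsp90aa1 the copies held 123.5% to 128.5% of the gene's reads in the 6 pools, and for Hspd1 the share was 68.8% to 74.0%. For Hspa8 it varied more, from 74.6% to 92.1%. Hspb1 also has a copy, Hsp25-ps1, which is 99.8% identical over 441 bases and held 104 reads beside the 317 of the gene (32.8%), with 7.41% to 55.6% in the 5 pools where the gene had reads. The line for reads with several alignments held 0 in every deposited table. How many of the copies' reads came from the parent genes was not tested. No pseudogene copy met these limits for Hspa1a, Hspa1b, Hsp90ab1, Dnajb1, Hsph1 or Hspa5.

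With the copies added, levels rose and no log2 fold change turned its sign. Hsp90aa1 then stood at 434, 395 and 553 CPM in WT and 480, 556 and 508 CPM in CKO pools, with a log2 fold change of 0.16. Hspa8 stood at 971, 1224 and 1491 CPM in WT and 1122, 1224 and 1211 CPM in CKO pools, with -0.05 beside -0.11 for the gene alone. Hspd1 stood at 157, 156 and 246 CPM in WT and 221, 179 and 188 CPM in CKO pools, with 0.07. The levels per kilobase given above therefore may be too low for these 3 genes relative to the others.

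**Figure D5:**
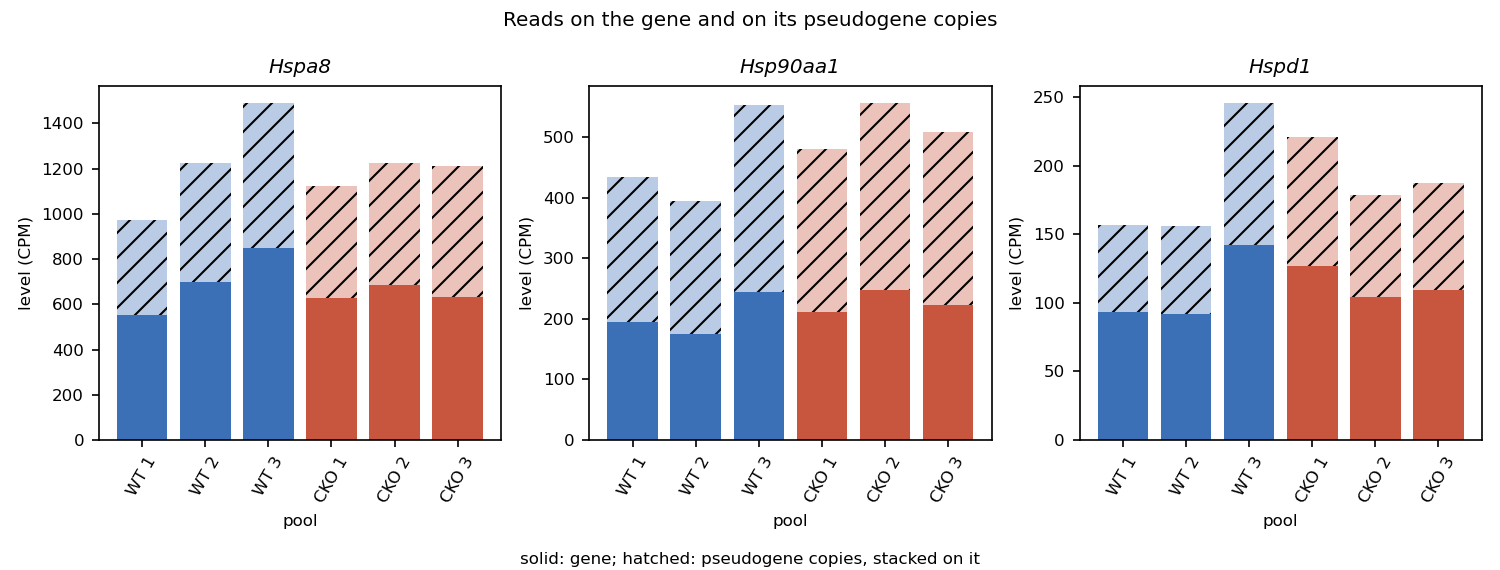
Level in CPM of Hspa8, Hsp90aa1 and Hspd1 in each pool (solid bars) with the reads of their pseudogene copies stacked on top (hatched), blue for WT and red for CKO. The hatched part is longer than the solid part for Hsp90aa1 in all 6 pools and shorter for the others.

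The genes whose levels ran most like those of Hspa1a, Hspa5 and Hspd1 over the 12 libraries were sought among 5114 genes whose mean log2 CPM was 5 or more. Libraries of a pool carry the same pool label, so these values are descriptions. Smpdl3a (r = 0.927), Rbm4b (0.871) and Ikbip (0.808) were closest to Hspa1a. For Hspa5 they were Scpep1 (0.954), Rab1a (0.946), a GTPase of transport from the endoplasmic reticulum to the Golgi, and Msmo1 (0.946), an enzyme of cholesterol synthesis, while Hsp90b1 had 0.766. For Hspd1 they were its pseudogene Hspd1-ps3 (0.989), Ddx26b (0.925) and Opa3 (0.908), and Hspe1 had -0.576.

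Of 96 further chaperone and stress response genes in 7 lists, 93 were tested and 0 passed the adjusted threshold. At an unadjusted p under 0.05 by edgeR there were 3 higher in CKO, where 3.01% of all genes were, and 7 lower, where 2.9% were, together 10.8% of the 93 beside 5.91%. The pools of the genotypes were apart for 3 genes that were higher in CKO and 15 that were lower, where 7.67% and 8.17% of all genes were apart in these directions. Of the 93, 30 had a log2 fold change above 0 and 63 below, with a median of -0.14 beside -0.06 for all genes. In library 1 alone 48 of 91 were above 0 and the median was 0.05. The number at an unadjusted p under 0.05 was 5 without WT pool 1, where 1177 of 23257 genes were under it. It was 3 without any 1 of the CKO pools, where 749 of 23122, 755 of 22584 and 706 of 23165 genes were (without CKO pools 1, 2 and 3). The count over all genes thus also moved with the pool left out. Every named gene of these lists has an edgeR adjusted p of at least 0.790.

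Cytosolic partners of HSP70 and HSP90 had 10 of 30 members above 0 (median -0.14), with 1 higher and 3 lower at an unadjusted p under 0.05. The direction of the list turned without WT pool 3 (19 of 30 above 0, median 0.12), in library 1 alone (17 of 29, 0.053) and in the fit of 12 libraries with pool as random effect (18 of 29, 0.074). Hspa4, a further HSP110 that exchanges nucleotide on HSP70, had 17.0, 19.8 and 37.9 CPM in WT and 46.1, 72.4 and 43.6 CPM in CKO pools. Each CKO pool was above every WT pool, and the log2 fold change was 1.12 (SE 0.41, edgeR unadjusted p = 0.0295), 0.99 in library 1 and 1.14 in library 2. Bag5, an exchange factor of HSP70, had 102, 81.1 and 134 CPM in WT and 62.7, 71.7 and 57.6 CPM in CKO pools (-0.72, SE 0.26, edgeR unadjusted p = 0.0279). To complete the count, the fold changes of Ahsa1, which activates the HSP90 ATPase, and Stub1, the ubiquitin ligase CHIP, were -0.65 (SE 0.24) and -0.60 (SE 0.25) on the log2 scale, and both were named after their values were seen. That of Stub1 was -0.35 without WT pool 1. St13, the most abundant gene of the list, stood at 274 ± 61.6 and 342 ± 87.9 CPM (SD, n = 3, log2 fold change 0.32, SE 0.27), and at 0.090 without CKO pool 2.

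Of the heat shock factors and their binding protein, 3 of 4 genes were tested, with a median of -0.33. It was 0.14 in library 1 alone, and 0.011 and 0.045 over 4 genes without CKO pool 2 and CKO pool 3. The WT pools had 61.3 ± 9.01 and the CKO pools 48.8 ± 7.58 CPM of Hsf1, the main heat shock factor (SD, n = 3, log2 fold change -0.33, SE 0.26), with 0.14 in library 1. Hsbp1, which binds HSF1, had 599, 300 and 396 CPM in WT and 254, 297 and 291 CPM in CKO pools. Its pools were apart by a small gap, and the log2 fold change was -0.62 (SE 0.28), or -0.30 without WT pool 1.

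The other small heat shock proteins had 4 of 6 members tested, all below 0 with a median of -0.68, where 11337 of 21477 genes were below 0. The median was -0.33 without WT pool 1 and -0.35 without CKO pool 2. In library 2 alone 1 of 3 was above 0 (median -0.44), and with WT pool 1 from library 2 it was 1 of 4 (-0.40). Cryab, an alpha-crystallin that astrocytes and oligodendrocytes are known to express, had 650, 399 and 433 CPM in WT and 268, 337 and 304 CPM in CKO pools. Each CKO pool was below every WT pool, and the log2 fold change was -0.71 (SE 0.25, edgeR unadjusted p = 0.0236) and -0.45 without WT pool 1. Hspb6 had 13.7, 21.1 and 13.9 CPM in WT and 10.7, 5.56 and 11.2 CPM in CKO pools (-0.83, SE 0.47), with 0.02 in library 2.

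Folding factors of the endoplasmic reticulum had 8 of 20 members above 0 and a median of -0.06, beside -0.06 for all genes. The sign of the median depended on the setting, with 12 of 20 above 0 and a median of 0.23 without WT pool 3, 12 and 0.11 in library 1 alone, 12 and 0.048 with no scaling factors, 12 and 0.087 in the fit of 12 libraries, 11 and 0.11 with limma-voom, and 11 and 0.023 without CKO pool 3. Canx, the lectin chaperone calnexin, had 353, 505 and 421 CPM in WT and 606, 691 and 553 CPM in CKO pools (0.53, SE 0.21, edgeR unadjusted p = 0.0382). Each CKO pool was above every WT pool, with 0.79 in library 1 and 0.25 in library 2. Pdia3, a disulfide isomerase and the most abundant of the list, had 507, 981 and 1267 CPM in WT and 770, 897 and 847 CPM in CKO pools, the same spread in WT and tightness in CKO pools as for Hspa5. Its log2 fold change was -0.13 (SE 0.33), and that of Sdf2l1, a BiP partner, was -0.76 (SE 0.34), or -0.45 without WT pool 1 and -0.44 in library 2.

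Of 14 genes of the unfolded protein response, 8 were above 0 (median 0.06). Without WT pool 3 there were 6 (-0.065), without WT pool 1 also 6 (-0.045), in library 2 alone 4 (-0.12), and with WT pool 1 from library 2 there were 5 (-0.014). Edem1, which sends misfolded glycoproteins to degradation, had 1.52, 13.9 and 3.79 CPM in WT and 30.3, 31.4 and 15.1 CPM in CKO pools, apart by a small gap (1.999, SE 0.83, edgeR unadjusted p = 0.0457). With 1 pool left out it ranged from 1.55 without WT pool 1 to 3.31 without WT pool 2. Eif2ak3, the kinase PERK, had 18.5, 9.04 and 37.1 CPM in WT and 8.35, 5.41 and 14.0 CPM in CKO pools (-1.22, SE 0.64). It was -0.58 without WT pool 3 and -0.23 in library 1. Herpud1, the most abundant, stood at 219 ± 8.53 and 237 ± 27.5 CPM (SD, n = 3, log2 fold change 0.11, SE 0.19).

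Mitochondrial chaperones and proteases had 2 of 8 members above 0 (median -0.26). Clpp, the matrix protease, had 243, 121 and 113 CPM in WT and 84.5, 78.4 and 86.9 CPM in CKO pools (-0.93, SE 0.33, edgeR unadjusted p = 0.0269), and it was -0.47 without WT pool 1. Grpel1, the exchange factor of mitochondrial HSP70, was likewise highest in WT pool 1, at 247 CPM beside 91.2 to 115 CPM in the other pools (-0.62, SE 0.38), and it was -0.053 without that pool. Hspa9, that HSP70, stood at 151 ± 41.4 and 155 ± 58.7 CPM (SD, n = 3, log2 fold change 0.04, SE 0.36).

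The chaperonin TRiC and prefoldin, which fold actin and tubulin, had 13 of 14 genes below 0, 10 of 14 with no scaling factors and 8 of 14 in library 1 alone. Their median was -0.14. Pfdn2 had 61.5, 30.6 and 52.1 CPM in WT and 23.9, 21.3 and 22.5 CPM in CKO pools (-1.09, SE 0.34, edgeR unadjusted p = 0.0146). Pfdn4 had 41.9, 19.2 and 31.6 CPM in WT and 11.2, 17.3 and 15.2 CPM in CKO pools (-1.09, SE 0.41, edgeR unadjusted p = 0.0330). For both, the highest CKO pool was below the lowest WT pool, and WT pool 1 was the highest. Cct7, a TRiC subunit, stood at 379 ± 15.0 and 309 ± 5.28 CPM (SD, n = 3, log2 fold change -0.29, SE 0.17), also with pools apart, but it was 0.16 in library 1.

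Immediate early genes, known to respond to tissue dissociation, were read beside the inducible HSP70 genes. The WT pools had 409 to 587 and the CKO pools 442 to 687 CPM of their 13 members summed. Of these, 10 of 13 were above 0 with a median of 0.14, beside 10140 of 21477 and -0.06 for all genes. Jun stood at 159 ± 72.0 and 164 ± 44.7 CPM and Dusp1 at 105 ± 35.5 and 111 ± 30.9 CPM (SD, n = 3). CKO pool 2, lowest in Hspa1a, had 442 CPM of this list, the lowest CKO sum, and WT pool 1, lowest among WT pools, had 409 CPM. CKO pool 3, highest in Hspa1a, had 625 CPM, while WT pool 3, at 21.8 CPM of Hspa1a, had 578 CPM. The highest sum, 687 CPM, was in CKO pool 1 at 44.1 CPM of Hspa1a, and WT pool 2 had 587 CPM at 57.9 CPM of Hspa1a. The part of dissociation in the levels of the heat shock genes was not tested. Fosb, named after its value was seen, was the 1 gene of the list at an unadjusted p under 0.05, at 0.304 ± 0.133 and 2.82 ± 1.75 CPM (log2 fold change 3.20, SE 0.92, edgeR adjusted p = 0.790).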

How the data were processed

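The 24 tables deposited by the authors held raw counts of reads by gene symbol. Bowtie2, HTSeq and GRCm38 are named per the submitters' processing notes. Versions, annotation and counting options are not given in the sources used here. Smart-Seq2 and Nextera XT, per the labels' protocols, do not mark strand. Summary lines were kept out of all fits (reads in no gene 16.0% to 35.3%, unaligned 11.2% to 21.7%, ambiguous 2.51% to 3.43% per pool). CKO pool 2 had the 35.3%, beside at most 25.8% in the others, and 38187 genes with reads beside 26502 to 33937. The part of this in its levels was not tested. The labels also give each pool a K tag (20, 12 and 2 in WT pools 1, 2 and 3, and 19, 4 and 9 in CKO pools 1, 2 and 3), which is not explained and was not used. Counts from both lanes of 1 library agreed within sampling noise (chi-square per degree of freedom 0.986 to 1.01, smallest p = 0.149), and those of both libraries from 1 pool did not (70.7 to 351, with a within-pool correlation of 0.161 over genes in limma). All 4 tables of a pool were summed, and the pool is the replicate. Levels are CPM at TMM-adjusted library sizes.

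Genotypes were compared with edgeR 4.0.16 (filterByExpr, TMM, quasi-likelihood F test with robust dispersions) in R 4.3.3, with Benjamini-Hochberg adjustment over all 21477 genes. The fit was run on simulated counts only with dispersions capped below the common dispersion of these data. That setting is easier than the data, so the power to find differences here was not tested. The biological coefficient of variation was 0.725. Exact two-sided permutation tests used log2 CPM with a prior count of 0.5. Alternatives included DESeq2 1.42.0 and limma 3.58.1 (voom). Copies were found with blastn 2.17.0 in GENCODE M21 transcripts, which also gave positions. The members and lists were chosen with earlier results of these data known. The text names the 10 genes, Notch2, the 2 genes with the smallest p and the most abundant gene of each chaperone list, leading genes of the dissociation list and some of the marker lists, and the 3 genes most like Hspa1a, Hspa5 and Hspd1. Hspe1 and Hsp90b1 are named as partners. Summed levels of all 8 marker lists overlapped between genotypes. Those of stem cells and radial glia were 5872 to 13302 CPM, 7 of 8 microglial markers had a log2 fold change above 0 (median 0.71), and Cdh5, an endothelial marker, was at 0 in 3 pools.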

Additional observations from a re-analysis of the deposited data

How the results depend on the processing

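In 18 alternative fits, 149 of 166 values of the 10 genes kept their sign, 17 changed it, and none passed the threshold (smallest adjusted p = 0.491). DESeq2 called 129 genes (84 higher, 45 lower) but 0 of the 10 and 0 of the other chaperone genes, and every other fit called 0 genes. With no scaling factors the genes at an unadjusted p under 0.05 were 809 higher and 388 lower, beside 647 and 622, and the median of all genes was 0.04. The other chaperone genes at that p numbered 10, but 4 with the replicate block, 5 in library 1, 3 in library 2, and 3 to 15 with 1 pool left out. Over all genes the count moved as well, from 1269 of 21477 to 1102 of 18314 in library 1 and 667 of 19247 in library 2. With 1 pool left out it was between 706 of 23165 (without CKO pool 3) and 2396 of 23096 (without WT pool 2). In the paired fit with the replicate block, Hspa9 was at -0.017 and 889 genes were below that p. Same-numbered pools had deviations correlated at 0.0636, 0.0435 and -0.0249, so the numbers were not taken as pairs.

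The sign of these values depended on a single pool, with the range given over fits that left out 1 pool each: Hspa1a -0.078 to 1.10, Hspa1b -0.44 to 0.59, Hspa8 -0.24 to 0.047, Hsph1 -0.10 to 0.27, Hspa5 -0.27 to 0.55, Hspd1 -0.031 to 0.29, Pdia3 -0.41 to 0.17 and Hspa9 -0.13 to 0.32. Library 1 alone gave -0.076 for Hspa5, 0.14 for Hsf1 and 0.16 for Cct7. Library 2 alone gave -0.19 for Hspa1b, -0.57 for Hsph1, -0.59 for Hspd1, 0.021 for Hspb6, -0.068 for Herpud1 and -0.43 for Hspa9. WT pool 1 from its library 2, chosen after seeing the data like the summing of copies, gave -0.13 for Hsph1, -0.013 for Hspa5, -0.078 for Hspd1, -0.0055 for Herpud1 and -0.065 for Hspa9. Limma-voom gave -0.16 for Hspa1b, and 12 libraries with pool as random effect gave 0.046 for Pdia3. The cause was not tested. In library 1 Hspd1 had an unadjusted p of 0.0378 (edgeR), where 1102 of 18314 genes were under 0.05. In library 2 Hsph1 had one of 0.0461 (edgeR), where 667 of 19247 genes were under 0.05. In the fit of 12 libraries 2 of the 10 genes had unadjusted p under 0.05 (smallest 0.0207, limma), as did 1611 of 18267 genes. Correlations moved in library 2 to 0.618 (Hspa1a with Hspa1b), -0.512 (Hsp90aa1 with Hsph1), 0.976 (Hspa8 with Hsp90ab1) and 0.644 (Hspd1 with Hspe1), and in library 1 to -0.882 (Hspd1 with Hspe1). Without 2 pools that of Hspa1a with Hspa1b was 0.772 and with Dnajb1 -0.224. Reads carry no molecular identifiers, so depth gives counting error only. Values of few reads, as for Hspb1 in CKO pools 1 and 2 (9 and 0 reads), are limited by it.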
